A study of Caenorhabditis elegans with 2 samples.

Results

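Strong EFL-3 peaks that lay on the autosomes at promoters with genes on one strand only numbered 905 in starved L1 larvae. They were chosen by a measured value and by position. The pooled list of 30000 peaks was ranked by its deposited signal value, a unitless enrichment score set by the caller. A peak of ranks 1 to 3000 was taken if it was not on X and its summit lay between 1000 bp upstream and 500 bp downstream of an annotated start of a protein-coding transcript, with all such genes on one strand. These 905 were set beside 269 autosomal peaks at divergent promoters and 150 one-directional promoter peaks on X, all of the same ranks, and beside 783 autosomal one-directional promoter peaks from the next 3000 ranks, called the weaker peaks below. The signal value and the position relative to the start chose the members, so both are given as descriptions and neither was tested.

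The study was a chromatin immunoprecipitation with sequencing (ChIP-seq) of one group in 2 biological replicates, with no second condition. The worms were whole L1 larvae of strain OP344, which carries the mutation unc-119(tm4063) and the transgene wgIs344. This transgene holds efl-3 (sequence name F49E12.6) as a fusion F49E12.6::TY1::EGFP::3xFLAG, together with unc-119(+). The tag is at the C-terminus and an anti-GFP antibody was used, so the peaks are those of the tagged protein, made in addition to the protein of the worm's own efl-3 gene. The larvae were 6 hours old, of pooled male and female sex, and had been synchronised by starvation after bleaching. Whole larvae were used, so the cells in which a promoter was occupied cannot be told apart.

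EFL-3 belongs to the atypical E2F proteins, which carry paired E2F-type DNA-binding domains, bind DNA without a DP partner and are best known in mammals, as E2F7 and E2F8, for holding down genes of the cell cycle. E2F proteins recognise short GC-rich sequences with a run of thymines before them, often close to transcription starts. In a one-directional promoter, transcription of coding genes leaves in a single direction, so a peak can be assigned to a strand. Here a peak is called divergent where the windows that hold its summit belong to genes on both strands, whether or not the summit lies between those genes. Many worm genes are trans-spliced, which removes the first part of the transcript, so an annotated start can lie downstream of the place where transcription begins.

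The E2F words searched were TTTCCCGC, TTTCGCGC, TTTGCCGC and TTTGGCGC, on both strands. The windows below run 100 bp to each side of the summit, are read 5′ to 3′ on the strand of the gene, and come from the RefSeq copy of the reference genome WBcel235. Capitals mark E2F words. They are shown because they hold a word next to genes of DNA replication (pcn-1 and mcm-5), of the DREAM complex and the E2F family (lin-9 and efl-1), of the nuclear pore (npp-8) and of the mitochondrial ribosome (mrpl-28).
pcn-1, chrIV:4049613-4049813, reverse strand: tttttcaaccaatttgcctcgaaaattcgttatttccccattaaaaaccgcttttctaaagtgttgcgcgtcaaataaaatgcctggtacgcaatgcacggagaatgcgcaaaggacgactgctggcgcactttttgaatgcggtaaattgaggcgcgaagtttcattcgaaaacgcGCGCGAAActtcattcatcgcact
lin-9, chrIII:8904155-8904355, reverse strand: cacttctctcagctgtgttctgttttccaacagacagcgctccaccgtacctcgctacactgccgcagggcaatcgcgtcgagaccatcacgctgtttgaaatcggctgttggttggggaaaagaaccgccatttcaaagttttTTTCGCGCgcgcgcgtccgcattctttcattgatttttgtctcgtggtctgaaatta
npp-8, chrIV:1595883-1596083, reverse strand: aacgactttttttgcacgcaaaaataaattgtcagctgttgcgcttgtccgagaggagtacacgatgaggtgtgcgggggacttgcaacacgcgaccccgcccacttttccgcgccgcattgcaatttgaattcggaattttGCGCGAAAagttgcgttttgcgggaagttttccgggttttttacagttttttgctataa
mcm-5, chrIII:4291329-4291529, reverse strand: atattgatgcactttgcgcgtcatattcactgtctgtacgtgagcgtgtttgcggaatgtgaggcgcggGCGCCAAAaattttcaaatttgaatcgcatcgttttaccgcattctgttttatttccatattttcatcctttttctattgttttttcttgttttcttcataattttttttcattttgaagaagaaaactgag
mrpl-28, chrII:156044-156244, reverse strand: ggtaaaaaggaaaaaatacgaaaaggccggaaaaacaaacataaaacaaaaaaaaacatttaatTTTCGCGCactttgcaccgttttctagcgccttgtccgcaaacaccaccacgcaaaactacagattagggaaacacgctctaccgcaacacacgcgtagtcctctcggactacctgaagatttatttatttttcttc
efl-1, chrV:16965709-16965909, reverse strand: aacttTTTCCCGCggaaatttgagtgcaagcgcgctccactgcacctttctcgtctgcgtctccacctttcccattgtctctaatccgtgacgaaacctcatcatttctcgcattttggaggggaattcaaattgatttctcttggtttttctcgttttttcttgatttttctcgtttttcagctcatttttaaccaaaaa

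Most members held no such word. The windows of the strongest member, at the ribosomal protein gene rpl-3, and of the strongest member at a respiratory chain gene, cox-5A, are shown as examples, on the same build.
rpl-3, chrIII:3867467-3867667, forward strand: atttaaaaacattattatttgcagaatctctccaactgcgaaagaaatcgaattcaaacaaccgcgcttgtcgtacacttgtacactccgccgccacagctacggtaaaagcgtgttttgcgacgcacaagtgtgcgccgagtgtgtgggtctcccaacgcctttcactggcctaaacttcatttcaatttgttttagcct
cox-5A, chrIII:12905118-12905318, forward strand: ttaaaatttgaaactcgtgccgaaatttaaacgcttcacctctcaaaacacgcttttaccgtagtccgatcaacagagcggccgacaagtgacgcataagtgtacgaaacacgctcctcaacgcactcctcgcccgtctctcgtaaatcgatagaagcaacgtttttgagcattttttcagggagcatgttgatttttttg

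In capitals the word appears in the direction of the gene in lin-9, mrpl-28 and efl-1, and as its reverse complement in pcn-1, npp-8 and mcm-5. In pcn-1 it lay 81 bp downstream of the summit and 184 bp upstream of the start. In lin-9 it lay 76 bp upstream of the start, in npp-8 113 bp, in mcm-5 190 bp, in mrpl-28 167 bp and in efl-1 225 bp. A match describes these letters and is not a measured binding site.

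The members' signal values ran from 59.98 to 506, with a median of 70.5 and quartiles of 64.2 and 82.8. The upper end of the range was thinly filled, and most members lay close to the lower limit. The weakest member, 188 bp upstream of try-3, had rank 2999 and a signal of 59.98. The next one-directional autosomal peak, 88 bp downstream of elo-8, had the rank after 3000 and a signal of 59.97, so the limit does not separate different values. At the limits of the window, the outermost members lay 995 bp upstream of F58D5.5 and 499 bp downstream of ins-13. Peaks just beyond it lay 1003 bp upstream of mrpl-23 and 501 bp downstream of K08F11.1. Of the members, 152 (16.8%) were in the authors' reproducible set, which is the 430 strongest pooled peaks. A deposited q-value under 0.05 was given for 89 members (9.83%) and one under 0.1 for 129 (14.3%). The q-values of members reached 0.178 at ranks 1 to 430 and 0.897 at ranks 2001 to 3000, so the lower ranks are relaxed calls.

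The strongest members sat just upstream of starts, and the weaker ones spread into the gene. The median summit lay 145 bp upstream of the nearest start, with quartiles at 411 bp upstream and 105 bp downstream, and 595 members (65.7%) were upstream. At ranks 1 to 430 the median was 239 bp upstream and 92.1% of 152 members were upstream. At ranks 431 to 1000 these values were 163 bp and 70.2% of 191 members, at ranks 1001 to 2000 they were 69 bp and 58.1% of 296, and at ranks 2001 to 3000 they were 67.5 bp and 56.0% of 266. Among the weaker peaks the median was 7 bp upstream and 51.0% were upstream. Seen by distance, 26.5% of the 253 members in the 250 bp before the start were in the reproducible set, and 25.0% of the 160 members between 251 and 500 bp upstream. Of the 185 members in the first 250 bp after the start, 3.78% were in that set.

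**Figure D1:**
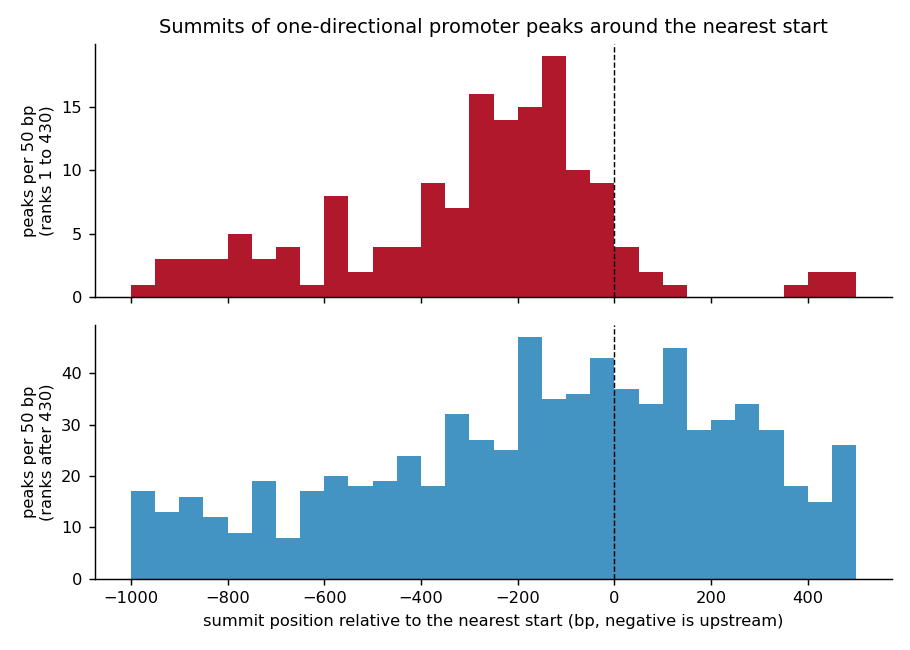
Number of members in bins of 50 bp (vertical axis) by position of the summit relative to the nearest start in bp (horizontal axis, negative is upstream, dashed line at the start), for ranks 1 to 430 above and the later ranks below. The upper distribution lies mostly upstream, with a median of 239 bp upstream, and the lower one crosses the start.

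The annotation under the summit differed in the same way along the ranks. Of all members, 347 (38.3%) had an intergenic summit, 240 (26.5%) one in a coding exon, 201 (22.2%) in an intron, 53 in a 5′ UTR, 46 in an annotated noncoding gene and 18 in a 3′ UTR. Coding exons held 3 of the 152 members of the reproducible set (1.97%), then 17.8% at ranks 431 to 1000, 35.5% at ranks 1001 to 2000 and 36.8% at ranks 2001 to 3000. Intergenic summits accounted for 102 members of the reproducible set. The median signal was 77.7 for intergenic members and 66.0 for those in coding exons. In the other sets, coding exons held 21.6% of divergent promoter peaks, 13.3% of X peaks and 39.5% of the weaker peaks.

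**Figure D2:**
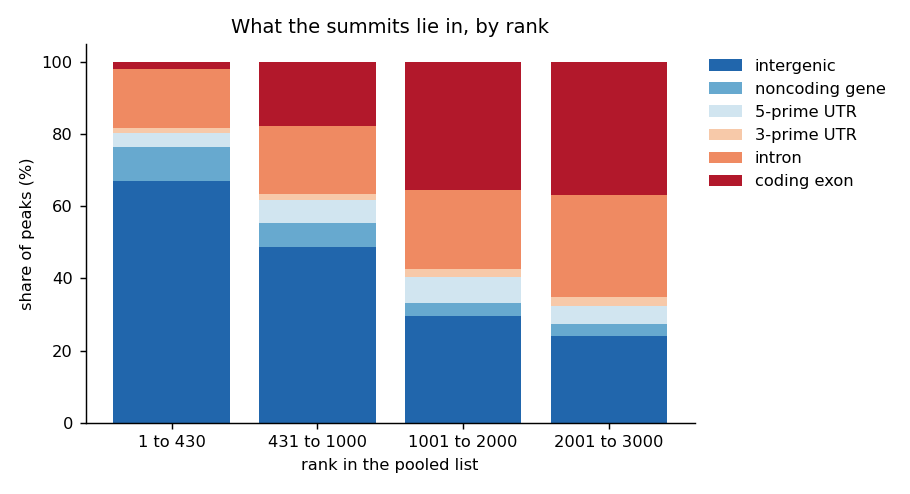
Share of members (vertical axis, %) by what the summit lies in, for 4 classes of rank in the pooled list (horizontal axis). Coding exons hold 1.97% at ranks 1 to 430 and 36.8% at ranks 2001 to 3000.

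Some members lay at starts inside a gene. For 207 members (22.9%) the window belonged to the gene only through a start other than its most upstream one. Of these, 34.8% had a summit in a coding exon, beside 24.1% of the other members, and 19 were in the reproducible set. Their median signal was 67.7, beside 71.0. The gene next upstream was on the same strand for 553 members (61.1%) and on the opposite strand for 350 (38.7%), and the background of 13371 one-directional autosomal promoters had 69.0% and 31.0%. The median gap to that neighbour was 818 bp on the same strand and 3123 bp on the opposite strand, beside 841 and 3302 bp in the background. The rule leaves out opposite-strand starts near the point examined, so these shares and gaps depend on it. That point was the summit for members and 145 bp upstream of the most upstream start for the background. Opposite-strand gaps under 500 bp numbered 18 of 350 in members and 2 of 4145 in the background. Same-strand neighbours at short range can be genes of one operon, for which a start within the operon need not have a promoter of its own. Members were spread over all autosomes, with 192 on chromosome I, 161 on II, 186 on III, 193 on IV and 173 on V. Chromosome V held 19.1% of members and 29.8% of one-directional promoters, and III held 20.6% and 14.7%. The central one of 3 equal stretches of each chromosome held 31.9% of members and 37.4% of these promoters.

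Both replicates held most members, but few were strong in each. A replicate summit within 100 bp was found for 813 members (89.8%) in replicate 1 and for 802 (88.6%) in replicate 2. It was found in both for 717 (79.2%, 95% Wilson interval 76.5 to 81.7%, over peaks), in replicate 1 only for 96, in replicate 2 only for 85 and in neither for 7. Among the 3000 strongest peaks of each replicate, 216 members (23.9%) were matched in both and 170 (18.8%) in neither. The pooled signal was close to the sum of the replicates' signals, with a median ratio of the sum to the pooled value of 0.982 (quartiles 0.946 and 1.01). A peak with a low value in one replicate could thus become a member through a high value in the other. Some members had low values at the matched summits of both replicates and lay above that sum. At rab-7 the pooled signal was 93.0, with 23.6 in replicate 1 (rank 15663) and 33.2 in replicate 2 (rank 3392). The replicate 1 summit lay 99 bp from the pooled one, at the edge of the limit of 100 bp, and the replicate 2 summit 7 bp. By rank, 84.2% of members at ranks 1 to 430 were matched in both of these top lists, and 41.4%, 2.36% and 0.752% in the next classes. Both replicates went into the pooled list, so none of these shares is independent of the choice of members.

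Over the 717 members matched in both, the median signal was 36.5 in replicate 1 and 35.5 in replicate 2, with ranges of 18.5 to 258 and 18.3 to 247. The ratio of replicate 1 to replicate 2 had a median of 1.09 and quartiles of 0.802 and 1.41. Across these peaks Spearman's rho was 0.164 and Pearson's r of log10 signal was 0.489, as a description of peaks chosen on the sum of both values. Divergent promoter peaks were matched in both replicates in 85.9% of cases, X peaks in 79.3% and the weaker one-directional peaks in 55.7%. The reproducible set held 36.1% of the divergent peaks and 17.3% of the X peaks.

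**Figure D3:**
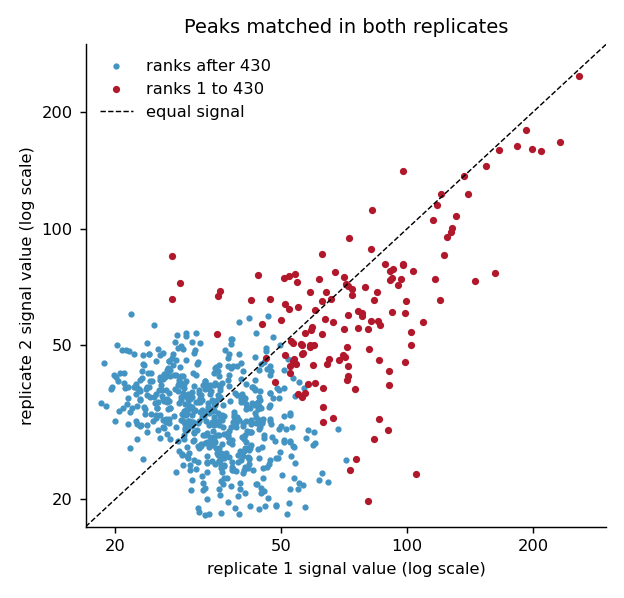
Signal value in replicate 1 (horizontal, log scale) and replicate 2 (vertical, log scale) for the 717 members matched in both, with ranks 1 to 430 in red, the others in blue and a dashed line of equal signal. The red points reach 258 and 247, and some lie far from the line, such as pbrm-1 with 80.5 and 19.8. In the blue cloud a high value in one replicate goes with a low value in the other. All these peaks were chosen on a pooled signal close to the sum of both values, which shapes the cloud.

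The 12 strongest members had pooled signals from 506 at rpl-3 to 242 at H41C03.3. At rpl-3, a protein of the large ribosomal subunit, the signal was 506, made of 258 in replicate 1 (rank 3) and 247 in replicate 2 (rank 1). At pcn-1, the sliding clamp of DNA polymerase, it was 399.6, with 232 (rank 4) and 167 (rank 10). At rpl-35, of the large ribosomal subunit, it was 364, with 199 (rank 9) and 161 (rank 16), 454 bp upstream of the start. These were among the strongest peaks of either replicate. At sec-61.G, part of the channel through which proteins enter the endoplasmic reticulum, the replicates gave 184 and 164, and at ddp-1, a small protein of mitochondrial import, 137 in each. At cox-5A, a subunit of cytochrome c oxidase, they gave 139.8 (rank 36) and 123 (rank 32), 273 bp upstream.

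The remaining strongest members included some with less usual positions. Summits in introns downstream of the start were found at the fatty acid synthase gene fasn-1, 446 bp downstream, with 166 and 159.9 in the replicates, and at Y56A3A.7, 470 bp downstream, with 192 and 180.1. The summit at egg-5, which acts in the change from egg to embryo, lay 585 bp upstream and 30 bp from the ncRNA gene R12E2.18, with 209 and 159. At Y24D9A.6, 705 bp upstream, and eelo-2, 233 bp upstream, the pooled signals were 300.5 and 245. The member at H41C03.3, 957 bp upstream and 45 bp from the snRNA gene sls-2.1, had 147 in replicate 1 (rank 29). Its nearest summit in replicate 2 was 106 bp away, just beyond the limit of 100 bp, and it was the strongest member with no match there. Next among those unmatched in replicate 2 were C53B4.3 (pooled signal 99.0, nearest summit 3279 bp away) and sluh-7 (98.9, 135 bp). The strongest members unmatched in replicate 1 were col-63 (128, nearest summit 126 bp away), zfp-1 (105.3, 129 bp) and smr-1 (105.2, 117 bp).

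E2F words lay near the summits of few members, among them several at replication genes. A word was present within 100 bp in 46 members (5.08%, 95% Wilson interval 3.83 to 6.71%), beside 3.40% of the 13371 one-directional autosomal promoters in a window of the same width centred 145 bp upstream of the start. The reversed words, written back to front without taking the complement, were present in 3.87% of members and 1.57% of these promoters. Members had a median GC content of 42.3% in the window and the promoters 33.3%, and the part of GC content in these shares was not tested. There were 51 sites in the 46 members, 28 in the direction of the gene and 23 against it, and 43 were upstream of the start, with a median of 149 bp upstream. TTTCCCGC and TTTCGCGC gave 20 sites each, TTTGCCGC 7 and TTTGGCGC 4. By position, 8.30% of members in the 250 bp before the start held a word and 3.24% of those in the first 250 bp after it. By rank the shares were 7.89%, 5.76%, 3.04% and 5.26% from the strongest class to the weakest.

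The 10 strongest members with a word were pcn-1, cpn-3, lin-9, F13A7.14, scc-2, npp-8, snr-4, ari-1.4, pole-1 and fbxl-2, and all 10 held TTTCGCGC. At lin-9, a core subunit of the DREAM complex, the pooled signal was 188, with 116 in replicate 1 (rank 68) and 74.1 in replicate 2 (rank 138). At scc-2, which loads cohesin on chromosomes, it was 179.8, with 81.9 (rank 153) and 88.7 (rank 81). At npp-8, a nuclear pore protein, it was 159, with 102 (rank 87) and 54.2 (rank 312). These 3 were strong in each replicate. At pole-1, the catalytic subunit of DNA polymerase epsilon, the signal was 112, with 70.3 (rank 231) and 47.1 (rank 524). At fbxl-2 it was 111, with 75.0 (rank 191) and 38.6 (rank 1474), so replicate 2 was the weaker there.

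Weaker members with a word included mcm-5, of the replicative helicase, with a pooled signal of 84.4 and 55.1 and 40.2 in the replicates, and rnr-1, the large subunit of ribonucleotide reductase, with 64.2 and no match in replicate 2. By gene list, beside 5.08% of all members, words were counted as follows. Of the 8 member peaks at replication genes, 4 held a word (pcn-1, pole-1, mcm-5 and rnr-1), of the 6 at nuclear pore and transport genes 3 did (npp-8, lem-2 and ima-2), and of the 4 at Rb, E2F and DREAM genes 2 did (lin-9 and efl-1). Cytoskeletal genes had 2 of 6 (tba-2 and dyci-1), mitochondrial ribosomal protein genes 2 of 8 (mrpl-55 and mrpl-28), splicing factors 2 of 12 (snr-4 and rbm-39), cell cycle and mitosis 1 of 5 (cul-1), histones 1 of 3 (his-37) and cell death and engulfment 1 of 4 (ced-2). The other lists had none, among them the 10 peaks at cytosolic ribosomal protein genes, the 15 at chromatin modifiers and the 2 at DNA damage genes. These counts are small and were not tested. The pooled signal was 107 at his-37. A word was also present at cdl-1, which binds the hairpin of histone mRNAs (64.1), and at hira-1, a histone chaperone (76.2). The genes mcm-5, rnr-1, ima-2, dyci-1, cdl-1 and hira-1 were named after their values were seen.

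The member at efl-1, a gene of the E2F family, lay 134 bp upstream of its start with a pooled signal of 68.6. It had no summit within 100 bp in either replicate. The nearest were 106 bp away in replicate 1 and 115 bp in replicate 2. The efl-3 gene itself had a member 389 bp upstream, with a pooled signal of 65.3, 35.9 in replicate 1 (rank 2637) and 22.3 in replicate 2 (rank 17618), and no E2F word. It was named after its values were seen. The transgene carries efl-3 too, and reads from the transgene and from the worm's own gene cannot be told apart in these lists.

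Sequence features were compared between members and the other sets, since the rule did not use them. Of 24 comparisons (8 features in 3 other sets, two-sided Fisher exact test with Benjamini-Hochberg adjustment), 3 passed an adjusted p of 0.05. An annotated noncoding gene within 200 bp of the summit was present in 126 members (13.9%) and in 52 of the 783 weaker peaks (6.64%), a difference of 7.28 percentage points (adjusted exact p = 2.46e-05). On X it was present in 43 of 150 peaks (28.7%), 14.7 points more than in members (adjusted exact p = 0.000237). The median summit lay 222 bp upstream on X, 145 bp in members and 7 bp in the weaker peaks, and the part of position in these differences was not tested. CHR words, the sequence TTTGAA or TTCGAA that DREAM-type complexes recognise in other animals, were present in 403 members (44.5%) and in 47 X peaks (31.3%), a difference of 13.2 points (adjusted exact p = 0.0194). All one-directional autosomal promoters had CHR words in 56.2% of windows. GC content moved with this set: its median was 44.8% on X, 42.3% in members and 33.3% in all promoters, and its part in the CHR difference was not tested. Peaks are not replicates, so these p-values say nothing of how cultures of worms vary.

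The other 21 comparisons did not pass. None of the 8 against divergent promoters did so, and none had an unadjusted p under 0.05 (0 of 8): E2F words were present in 6.69% of those 269 peaks (adjusted exact p = 0.716), CHR words in 40.9% (0.643) and a noncoding gene in 13.0% (0.902). The GA-repeat word GAGAGAGA was present in 5.64% of members and 2.94% of the weaker peaks (adjusted exact p = 0.0501), and in 2.80% of all promoters. The SP1-like word CCGCCC was present in 9.94% of members, 7.41% of the weaker peaks (adjusted exact p = 0.337) and 5.60% of promoters, and the E-box CACGTG in 5.97%, 5.36% (0.848) and 4.20%. Runs of 8 thymines were present in 12.5% of members, between 10.7% and 12.6% of the other sets, and 26.3% of all promoters. All words were searched on both strands. With promoters taken from 500 bp upstream to 200 bp downstream, none of the 24 passed the Fisher exact test (smallest adjusted exact p = 0.108), and 5 had an unadjusted p under 0.05. With the list of either replicate alone, both noncoding differences passed and the CHR difference did not (adjusted exact p = 0.163 for replicate 1 and 0.457 for replicate 2), and with replicate 1 the GA-repeat difference passed (adjusted exact p = 0.0135).

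**Figure D4:**
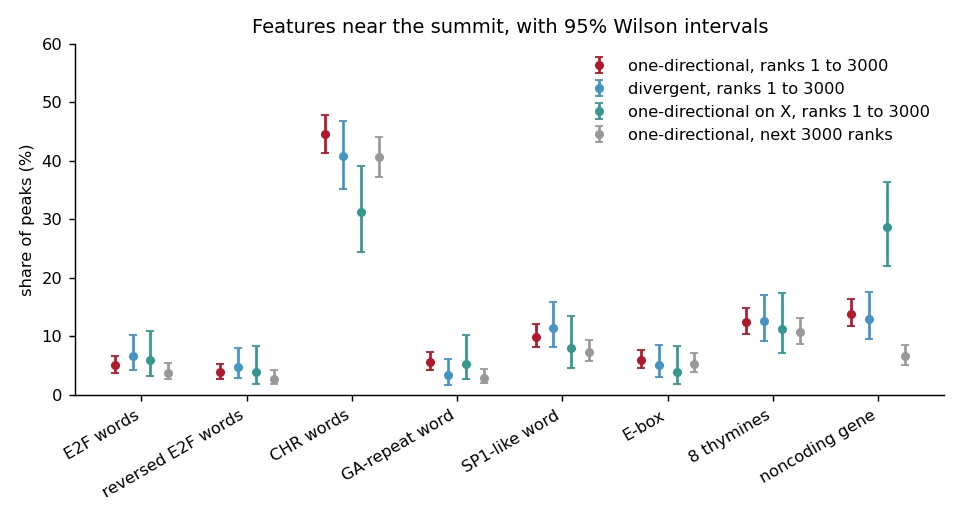
Share of peaks (vertical axis, %) with each feature within 100 bp of the summit (200 bp for a noncoding gene), for the members and the 3 other sets, with 95% Wilson intervals that cover counting over peaks only. Members lie at 13.9% for a noncoding gene, between the weaker peaks at 6.64% and X at 28.7%.

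Noncoding genes near members were mostly of the class annotated as ncRNA, with 87 members, followed by snoRNA with 19, snRNA with 8 and tRNA with 6. Another 3 were lincRNA, 2 miRNA and 1 antisense RNA genes. The share was 20.4% at ranks 1 to 430 and 17.8%, 11.8% and 9.77% in the later classes, and all one-directional promoters had 4.33%. Besides egg-5 and H41C03.3, strong members of this kind were cmtr-1 (219), 81 bp from a snoRNA gene, and hsp-1 (152), 69 bp from an ncRNA gene. For these members the signal cannot be assigned to the coding or to the noncoding gene. Repeated sequence touched few members: 39 (4.31%) held any 50-base word that occurs more than once in the genome. In 3 (0.331%) such words made up over 50% of the words in the 201 bp window around the summit. At his-42 they made up 90.1%, with signals of 28.7 in replicate 1 and 72.3 in replicate 2, and at unc-31 57.2%. Both summits lay inside an annotated snRNA gene. Reads there cannot be assigned to one copy.

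The members' windows held 877 of 17242 autosomal protein-coding genes (5.09%), and divergent promoter peaks of the same ranks held 541 (3.14%). Counts in gene lists are given against these shares as descriptions, with no test. Whether a peak was a member depended on its summit, so a gene can have members at some places and divergent peaks at others. As a guide, each gene was classed by the same windows at a single point, 145 bp upstream of its most upstream start. There 13371 of the 17242 genes (77.5%) had windows of genes on a single strand, called a one-directional promoter for the lists. A gene classed otherwise at that point can still have a member elsewhere, so the share is not a ceiling. Member counts used all annotated starts of a gene, and this share used only the most upstream one. This share differed widely between lists, from 16 of 78 histone genes to all 8 Hox genes and cofactors, and it is given beside each list for which it was below that of all genes. DNA replication genes were reached by both kinds of promoter, with 7 of 46 (15.2%) each, and 20 of the 46 had a one-directional promoter. The 7 at one-directional promoters were pcn-1, rpa-2, mcm-2, pole-1, mcm-5, cdc-6 and rnr-1. At rpa-2, of the single-strand binding protein, the signal was 169.9, with 96.7 and 74.1 in the replicates. At mcm-2, of the replicative helicase, it was 167, with 109 and 57.6. Both were higher in replicate 1. Of the Rb, E2F and DREAM list 4 of 21 (19.0%) were reached, namely lin-9, lin-36 (93.2), efl-1 and efl-3, and 15 of the 21 had a one-directional promoter. Of 73 genes of cell cycle and mitosis, 5 (6.85%) were reached, beside 9 (12.3%) at divergent promoters, and 38 of the 73 had a one-directional promoter. Among the 5 were sas-4 of the centriole (85.4), zen-4, a kinesin of cytokinesis (70.2), and cul-1, a cullin that limits cell division (69.2). The summit counted for sas-4 lay 713 bp upstream of its start and 41 bp upstream of that of F10E9.11. DNA damage response and repair had 2 of 57 (3.51%; 31 with a one-directional promoter), mrt-2 (103) and atm-1 (60.5).

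**Figure D5:**
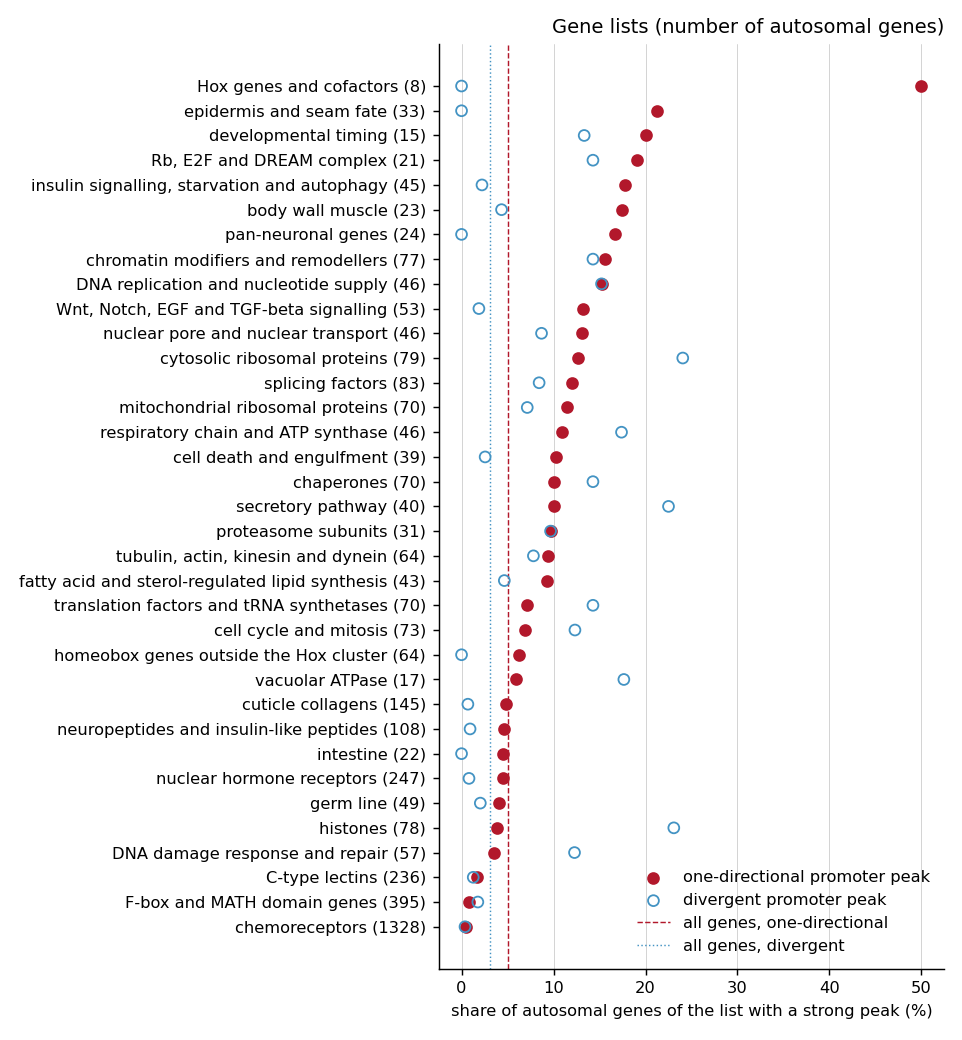
Share of the autosomal genes of each list (horizontal axis, %) with a one-directional (filled) or divergent (open) promoter peak of ranks 1 to 3000, with the number of genes in the list in brackets and the shares over all genes, 5.09% and 3.14%, as lines. Histones lie at 3.85% and 23.1%, and Hox genes and cofactors at 50% and 0%.

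Genes of protein synthesis and other housekeeping processes had members and also many divergent promoter peaks. Cytosolic ribosomal protein genes had 10 of 79 (12.7%) at one-directional and 19 (24.1%) at divergent promoters, while 31 of the 79 genes had a one-directional promoter and 48 a divergent one. After rpl-3 and rpl-35 the strongest member was rpl-24.2, with 117 and replicate values of 70.7 and 55.0. Mitochondrial ribosomal protein genes had 8 of 70 (11.4%; 42 with a one-directional promoter) and 5 (7.14%). They were led by mrpl-55 (90.7), mrpl-22 (83.0) and mrpl-28 (80.5), so none was in the reproducible set. Splicing factors had 10 of 83 (12%; 42 with a one-directional promoter), with snr-4, a core Sm protein, at 149, and nuclear pore and transport genes 6 of 46 (13.0%; 25 with a one-directional promoter), with npp-8, npp-18 (96.1) and lem-2, a protein of the inner nuclear membrane (84.9). Chaperones had 7 of 70 (10%; 36 with a one-directional promoter) and 10 at divergent promoters. They were led by hsp-1, a cytosolic Hsp70 (152), crt-1, calreticulin (149), and dnj-9 (129), and all 7 summits were upstream of the start.

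Histone genes were reached mainly at divergent promoters, with 18 of 78 (23.1%), and by members in 3 of 78 (3.85%), his-37, his-42 and hil-7. Of the 78 genes 62 (79.5%) had a divergent promoter and 16 a one-directional one. At his-37 the replicates differed, with 75.6 in replicate 1 (rank 189) and 25.4 in replicate 2 (rank 11461). Genes of the secretory pathway had 4 of 40 (10%; 23 with a one-directional promoter) and 9 (22.5%), and respiratory chain and ATP synthase genes 5 of 46 (10.9%; 24 with one) and 8 (17.4%). In the respiratory list, cox-6A (141) and nduf-11 (97.4) followed cox-5A. Translation factors and tRNA synthetases had 5 of 70 (7.14%; 36 with a one-directional promoter) and 10 (14.3%), with 172 at eif-3.C, 140 at eif-2Bgamma and 135 at eif-3.B. Proteasome subunits had 3 of 31 (9.68%) in each kind of promoter, where 12 genes had a one-directional one, with pas-5 (125), rpn-11 (115) and rpt-6 (66.4). The vacuolar ATPase had 1 of 17 (10 with a one-directional promoter), vha-11 (68.6), and 3 at divergent promoters. Lipid synthesis had 4 of 43 (9.30%), where cept-2 (109.97) and pmt-2 (79.0) followed fasn-1.

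Hox genes and their cofactors stood at the top of the lists by share, on few genes. Of 8 genes, 4 had a member (50%) and none a divergent peak, and all 8 had a one-directional promoter. These were lin-39, the mid-body Hox gene, ceh-13, the anterior one, and the cofactor genes unc-62 and ceh-20. At lin-39 the summit lay 43 bp downstream of the start in the 5′ UTR, with a pooled signal of 93.6 (rank 456), 53.4 in replicate 1 (rank 447) and 41.3 in replicate 2 (rank 1010). At ceh-13, 597 bp upstream, the pooled signal was 64.2, with 52.1 and 19.6. At unc-62 it was 65.0, with no match in replicate 1 and 45.2 in replicate 2, and at ceh-20 it was 60.9, with 42.0 and no match in replicate 2. Only lin-39 of these was among the 3000 strongest in both replicates. None of the 4 was in the reproducible set, and none held an E2F word. With only the most upstream start of each gene, the peaks named here at lin-39 and unc-62 were not members. Those at ceh-13 and ceh-20 stayed.

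Of 33 genes of epidermis and seam fate, 7 (21.2%) had a member and none a divergent peak, and 32 of the 33 had a one-directional promoter. The epidermal GATA factor gene elt-1 led with 170.0, in an intron 303 bp upstream of the start, with 91.2 in replicate 1 (rank 110) and 73.9 in replicate 2 (rank 139). It was followed by egl-27 (73.5, no match in replicate 2) and nhr-23, a receptor of the moulting cycle (71.5, with 26.0 and 30.9). Only elt-1 of the 7 was in the reproducible set, and 4 of the list's 8 member peaks were matched in both replicates. The peaks given here at elt-1, egl-27 and nhr-23 were not members with only the most upstream start of each gene. Of these 7 genes, unc-62 and ceh-20 are also in the Hox list. Signalling genes of the Wnt, Notch, EGF and TGF-beta pathways had 7 of 53 (13.2%; 47 with a one-directional promoter). They were led by wrm-1, a beta-catenin (112), lit-1, a Nemo-like kinase (100.3), and pry-1, an Axin (86.4, with 52.9 and 25.8). Developmental timing had 3 of 15 (20%), with lin-28 (104.6), lin-66 (76.6, with 64.6 and 22.2) and sea-2 (65.9, with 36.0 and 27.9). Of these timing genes only lin-28 was in the reproducible set, and the sea-2 summit lay in a coding exon. The lin-28 and sea-2 peaks were not members with only the most upstream start, and the lin-66 peak stayed. Chromatin modifiers had 12 of 77 (15.6%) and 11 at divergent promoters. In that list 48 of 77 genes had a one-directional promoter. The members were led by the acetyltransferase gene cbp-1 (218, with 145 and 73.1), nurf-1 (133) and pbrm-1 (97.2, with 80.5 and 19.8).

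Insulin signalling, starvation and autophagy had 8 of 45 genes (17.8%) with a member, and 38 of the 45 had a one-directional promoter. They were led by the autophagy genes epg-2 (97.6) and lgg-1, the worm LC3-like protein (84.4, no match in replicate 2 for this peak), and by hlh-30, a regulator of autophagy and lysosomes (83.2). Only epg-2 was in the reproducible set. The hlh-30 peak was not a member with only the most upstream start of each gene, and the epg-2 and lgg-1 peaks stayed. Cell death and engulfment had 4 of 39 (10.3%), rab-7 (93.0), ced-2 (71.3), unc-108 (67.8) and rab-5, all acting in engulfment or the handling of corpses. Body wall muscle had 4 of 23 (17.4%), led by unc-89 (76.2), unc-15, paramyosin (64.9), and unc-22, twitchin (61.8). Pan-neuronal genes had 4 of 24 (16.7%), led by unc-31 (92.7), unc-11 (64.9) and ric-7 (62.7). None of these muscle or neuronal members was in the reproducible set, and 22 of the 23 muscle genes and 23 of the 24 neuronal genes had a one-directional promoter. The peaks at unc-31, unc-11 and ric-7 were not members with only the most upstream start. Those at unc-89, unc-15 and unc-22 stayed. The cytoskeletal list had 6 of 64 (9.38%), and 48 of the 64 had a one-directional promoter. It was led by dnc-3 (102.5, no match in replicate 1, nearest summit 110 bp away), act-2 (91.6) and tba-2 (84.7).

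Several large families and 2 small lists had shares near or below that of all genes. Nuclear hormone receptors had 11 of 247 (4.45%), led by nhr-34 (110.2), nhr-19 (85.6) and nhr-256 (83.2), and cuticle collagens 7 of 145 (4.83%), led by col-63, col-10 (90.7) and col-14 (69.5). Homeobox genes outside the Hox cluster had 4 of 64 (6.25%), with unc-86 (67.1), ceh-53 (64.1) and ceh-20 named by the rule. Neuropeptides and insulin-like peptides had 5 of 108 (4.63%), led by ins-13 (78.6), nlp-29 (73.8) and ins-16 (65.8). The germ line list had 2 of 49 (4.08%), egg-5 and mex-1 (65.3), where 30 of the 49 (61.2%) had a one-directional promoter. The intestine list had 1 of 22 (4.55%), asp-2 (60.7). The lowest shares were those of C-type lectins with 4 of 236 (1.69%), F-box and MATH domain genes with 3 of 395 (0.759%) and chemoreceptors, which act in sensory neurons, with 7 of 1328 (0.527%). Their strongest members were at clec-169 (78.6), clec-91 (73.2) and clec-126 (72.7), at fbxb-72 (73.7), fbxa-83 (69.0) and math-33 (68.1), and at sre-23 (79.0), srh-170 (75.1) and str-198 (73.8). The summit counted for str-198 lay 609 bp upstream of its start and 326 bp downstream of that of ZK285.2. For these 3 families the shares at divergent promoters were 1.27%, 1.77% and 0.377%. One-directional promoters belonged to 75.4%, 76.5% and 86.0% of their genes, beside 77.5% of all genes.

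Most genes had a single member. Of the 877 genes, 811 had 1 peak, 61 had 2 and 5 had 3, the last being egl-30, Y54G2A.11, sms-3, lgg-1 and sup-26. Some of these peaks were neighbours of each other. The smallest gap between summits in the pooled list was 199 bp, and 21 pairs of members, 42 peaks in all (4.64%), lay within 250 bp, with a median gap of 205 bp. At egg-5 the second peak, 204 bp from the first, had a signal of 83.6 beside 366, and at lin-39 the second, also 204 bp away, had 64.7 beside 93.6. Whether such pairs are parts of one broader region was not tested, and counts of peaks per gene depend on it. Conversely, 43 members (4.75%) lay in the windows of 2 genes on the same strand. The strongest of them were sec-61.G (with F32D8.13), ddp-1 (with ttc-7) and rpb-11, a subunit of RNA polymerase II (with W01G7.4; signal 146).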

How the data were processed

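Per the labels, the data are ChIP-seq peak lists on ce11 (the assembly WBcel235) from 2 biological replicates of one group. The authors deposited 30000 peaks for each replicate and for the replicates pooled, and a reproducible set. The signal value, the −log10 q-value and the offset of the summit from the peak start are as deposited by the authors. Aligner, caller and settings were not given in the sources used here. Read depth was not analysed here, so precision is unknown, and intervals cover counting over peaks only. The labels call the replicates biological and say no more of their origin.

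Summits were placed against protein-coding starts of Ensembl release 115. Words were counted within 100 bp of the summit (GC content over the same 201 bp), and a replicate summit within 100 bp was a match. Gene lists (35) were counted by gene. Fisher exact tests were two-sided with Benjamini-Hochberg adjustment over 24 (scipy 1.17.1, statsmodels 0.14.6), and were checked on simulated data. Genes named are the 12 strongest members, the 3 strongest of each list, the 10 strongest with an E2F word, the 3 strongest unmatched in a replicate, the members at the thresholds and the 3 with most genes in the window. All other genes named were chosen after their values were seen. The members, lists and tests were chosen with earlier results of these data known, and the lists were trimmed after their counts had been seen.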

Additional observations from a re-analysis of the deposited data

How the results depend on the processing

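The number of members, 905, was 656 with a window of 500 bp upstream and 200 bp downstream, 711 with only the most upstream start of each gene, and 891 to 896 with the list of one replicate alone. The last 2 lists kept 475 (52.5%, replicate 1) and 464 (51.3%, replicate 2) of the 905, the narrow window 571 (63.1%) and the most upstream start 698 (77.1%). Of 115 named peaks, 79 stayed members in the narrow window, 94 with the most upstream start, 84 with replicate 1 alone and 80 with replicate 2 alone. These counts of named peaks, and the feature tests with the most upstream start, were chosen after seeing the data. The narrow window left out Y56A3A.7, egg-5, fasn-1, Y24D9A.6 and H41C03.3 of the 12 strongest.

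The median distance, 145 bp upstream, moved to 239 bp in the reproducible set, 200 bp at ranks 1 to 1000 and 165 bp with the most upstream start. It was 137.5 bp in the narrow window and 136 to 154.5 bp with one replicate alone. The share matched in both replicates, 79.2%, moved to 59.2% within 50 bp, 91.8% within 200 bp, 23.9% among the 3000 strongest peaks of each replicate and 92.8% in the reproducible set. The share with an E2F word, 5.08%, moved to 2.43% within 50 bp, 7.96% within 150 bp and 7.89% in the reproducible set, and was 4.71 to 4.91% with one replicate alone. Of the 3 feature differences, none passed in the narrow window (0 of 24), and all 3 passed with the most upstream start (CHR against X, adjusted exact p = 0.00356). Both noncoding differences passed with either replicate alone and the CHR difference with neither. In all, 2 to 3 of 24 comparisons passed with one replicate alone, the third being the GA-repeat with replicate 1. With words counted within 50 bp the CHR difference passed (adjusted exact p = 0.0269), and the 200 bp limit for noncoding genes was not varied. The cause of these shifts was not tested. No paired analysis was possible because the design holds a single group.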
